A study of Mus musculus with 6 samples.

Results

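The genes that make, carry and break down adenosine and other purine nucleosides were followed in the duodenal villus epithelium of double mutant (DM) and wild-type (WT) mice. They are Nt5e, Entpd5, Entpd8, Slc28a1, Slc28a2, Slc29a1, Ada, Adk, Pnp and Xdh, 10 of the 20409 features counted. They were named as 1 pathway, and the pathway was selected on the lower count of Nt5e in the DM mice, so the DM against WT values of these genes are given as a description, without a p-value. All 10 had enough counts to enter the comparison. Nt5e, Ada, Slc28a1 and Slc28a2 were lower in DM villi with log2 fold changes of −4.43 or below, Entpd5, Xdh and Entpd8 were lower with log2 fold changes of −1.15 to −0.87, and Adk, Pnp and Slc29a1 did not pass the threshold.

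DM mice carried Smad4 fl/fl, Ctnnb1 exon3 fl/wt and Villin-CreERT2, which loses SMAD4 and keeps β-catenin from being degraded once tamoxifen activates the Cre in cells of the gut epithelium, where the villin promoter drives it. They were given tamoxifen on consecutive days and villi were collected about a week after the start. WT mice were littermates without the injection, matched for age and sex. The paper calls them wild-type and does not state which of these alleles they carried. The effect of tamoxifen and that of the alleles therefore cannot be told apart. The paper describes the conditional mutant mice as having a C57BL6-enriched background. Each group had 3 mice with 1 polyA RNA-seq library a mouse, replicate 1 male and replicates 2 and 3 female in both groups, and the age was not given in the sources used here. Totals ran from 19678507 to 26337318 counts a library, and 3 counts, the floor used here, stood for 0.125 to 0.163 CPM (counts divided by library size after scaling by the trimmed mean of M values, TMM). Smad4, the targeted gene, had 120, 180 and 144 CPM in WT mice 1, 2 and 3 and 26.1, 36.8 and 32.1 CPM in DM mice 1, 2 and 3, a log2 fold change of −2.22 ± 0.187 (standard error, n = 3 and 3 mice, edgeR quasi-likelihood test, adjusted p = 0.000145). The whole-gene count cannot show the deletion within Ctnnb1. In WT mouse 1 the goblet cell marker genes summed to 125 CPM and the Paneth cell marker genes to 7.91 CPM, against 11026 to 11601 CPM and 909 to 1500 CPM in WT mice 2 and 3. The DM mice had 4659 to 5057 CPM and 153 to 248 CPM for the same lists. WT mouse 1 was also the lowest WT mouse for crypt markers, at 63.8 CPM against 131 and 151 CPM. The same held for villus base genes (6928 against 12865 and 14082 CPM) and lymphocyte markers (94.8 against 195 and 184 CPM). Log2 CPM over all tested genes correlated at r = 0.969 between WT mouse 1 and each other WT mouse, and at 0.989 between WT mice 2 and 3.

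Outside the cell, ATP and ADP are cut to AMP by enzymes such as the ENTPD and ENPP families, and CD73, the product of Nt5e, cuts AMP to adenosine. Adenosine can bind adenosine receptors, or enter the cell with sodium through the concentrative transporters of the SLC28 family or along its gradient through the equilibrative SLC29 family. Inside, adenosine deaminase (Ada) turns it into inosine or adenosine kinase (Adk) returns it to AMP, purine nucleoside phosphorylase (Pnp) splits inosine and guanosine, and xanthine dehydrogenase (Xdh) makes uric acid from the bases. In the small intestine these functions are known for the absorptive enterocytes, and several of the transcripts lie towards the villus tip.

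The sequences before the start sites of the genes with the 4 largest differences are printed because these genes were low together, and they differ widely in base composition. Each runs 250 bases up to the start site in the sense direction of its gene, is taken from the RefSeq promoter table (GRCm38.p6) and was found at 1 place in mm9, whose coordinates are given. Capitals mark the motifs found. The Nt5e window lies at chr9:88222197-88222446 on the plus strand, Ada at chr2:163575976-163576225 on the minus strand, Slc28a1 at chr7:88259435-88259684 on the plus strand and Slc28a2 at chr2:122251921-122252170 on the plus strand, with its RefSeq start 1045 bases inside the GENCODE gene.
Nt5e: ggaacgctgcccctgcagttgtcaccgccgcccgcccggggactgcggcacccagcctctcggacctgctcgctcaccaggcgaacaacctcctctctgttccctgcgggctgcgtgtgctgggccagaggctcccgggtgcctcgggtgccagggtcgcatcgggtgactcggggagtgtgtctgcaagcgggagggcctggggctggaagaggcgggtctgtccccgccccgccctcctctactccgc
Ada: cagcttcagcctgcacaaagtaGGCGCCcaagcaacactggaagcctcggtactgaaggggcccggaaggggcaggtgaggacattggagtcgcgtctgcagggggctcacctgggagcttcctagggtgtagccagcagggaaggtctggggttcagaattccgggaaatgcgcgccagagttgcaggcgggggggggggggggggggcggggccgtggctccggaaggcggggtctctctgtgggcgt
Slc28a1: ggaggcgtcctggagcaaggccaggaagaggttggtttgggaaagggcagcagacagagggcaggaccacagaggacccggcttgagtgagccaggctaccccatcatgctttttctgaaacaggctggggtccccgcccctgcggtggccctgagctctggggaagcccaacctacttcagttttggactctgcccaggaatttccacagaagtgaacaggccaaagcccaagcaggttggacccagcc
Slc28a2: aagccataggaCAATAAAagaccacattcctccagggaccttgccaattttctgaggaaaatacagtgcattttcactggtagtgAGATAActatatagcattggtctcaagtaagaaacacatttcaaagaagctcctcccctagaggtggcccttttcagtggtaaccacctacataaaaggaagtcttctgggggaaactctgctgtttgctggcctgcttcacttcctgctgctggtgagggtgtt

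The Nt5e window was 72% G and C with 21 CpG pairs, that of Ada 67.2% with 14, that of Slc28a1 60.4% with 4 and that of Slc28a2 45.2% with none. Over all 32851 windows of the RefSeq table the median was 52.4% with 6 CpG pairs. The 6 letter strings searched, on both strands, are known for factors of the gut epithelium or of the pathways altered here. The HNF4 string CAAAGTCCA occurs in 0.384% of all windows and the CDX string TTTATNG in 9.81%. For the GATA factors AGATAA was used, found in 9.99% of windows, and for TCF/LEF factors CTTTGAT, found in 3.21%. The SMAD strings were GGCGCC, in 9.59% of windows, and the palindrome GTCTAGAC, in 0.167%. Of the 10 genes, 9 had an entry, with 17 windows in all. Ada held GGCGCC 228 bases before its start, Slc28a2 held a CDX string, read as CAATAAA, 239 bases and AGATAA 165 bases before it, and 1 of the 8 windows of Slc29a1 held AGATAA as TTATCT, 236 bases before a start that lies 3479 bases inside the GENCODE gene. The windows of Nt5e and Slc28a1 held none of the 6 strings, which says only that these letters are not in these windows.

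Nt5e (chr9:88222447-88266927 in mm9) had 142, 108 and 137 CPM in WT mice 1 to 3 and 1.78, 1.02 and 2.14 CPM in DM mice 1 to 3, the latter from 38, 22 and 45 counts. The groups lie far apart, and the DM mean was 1.28% of the WT mean (129 ± 18.2 against 1.65 ± 0.570 CPM, SD, n = 3 each), a log2 fold change of −6.29 ± 0.261. These are the values on which the genes were chosen. In bulk libraries fewer cells with the transcript and less transcript in each cell cannot be told apart.

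Entpd8, a plasma membrane enzyme that cuts nucleoside triphosphates and diphosphates, had 325, 274 and 293 CPM in WT and 144, 170 and 172 CPM in DM mice, a log2 fold change of −0.87 ± 0.120. Entpd5, a nucleoside diphosphatase of the endoplasmic reticulum that can be secreted, had 517, 449 and 376 CPM in WT and 233, 172 and 200 CPM in DM mice, a log2 fold change of −1.15 ± 0.159. Both genes were lower in every DM mouse than in any WT mouse, with DM means at 54.6% and 45.0% of the WT means. Of Entpd8's exons, 53 bases overlap Noxa1 on the opposite strand, and the strand setting of the counting was not given.

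The concentrative transporters were also far lower in DM mice. Slc28a1, which encodes CNT1 and prefers pyrimidine nucleosides and adenosine, had 630, 449 and 398 CPM in WT and 22.4, 17.3 and 28.8 CPM in DM mice, a log2 fold change of −4.43 ± 0.256. Slc28a2, which encodes CNT2 and prefers purine nucleosides, had 541, 720 and 809 CPM in WT and 13.4, 17.2 and 34.4 CPM in DM mice, a log2 fold change of −4.99 ± 0.413. Neither pair of groups came near to overlapping. Within the WT mice the 2 genes ran in opposite order, Slc28a1 highest in mouse 1 and Slc28a2 lowest there, and the ratio of Slc28a2 to Slc28a1 per kilobase of exon was 0.609, 1.14 and 1.44 in WT mice and 0.422, 0.704 and 0.847 in DM mice. These ratios overlap between the groups. The 3 member transporters together had 1171 to 1209.9 CPM in WT and 37.2 to 65.8 CPM in DM mice.

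Slc28a2 has a near copy, Gm14085 (Slc28a2b), 23803 bases away on chromosome 2, whose coding sequence is 94.6% identical. Gm14085 took 0.0538% to 0.324% of the counts of the pair in WT mice and 0.138% to 1.72% in DM mice, so Slc28a2 held nearly all of them in each mouse. Slc29a1, the equilibrative transporter ENT1, was far less abundant than either concentrative gene. It had 0.875, 1.52 and 2.12 CPM in WT and 3.43, 2.78 and 2.66 CPM in DM mice, from 21 to 42 and 56 to 73 counts. Every DM mouse lay above every WT mouse, but the log2 fold change of 0.98 ± 0.372 did not pass the threshold, and 275 bases of its exons overlap Gm17080 on the opposite strand. It passed without WT mouse 3, at a log2 fold change of 1.31.

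**Figure D1:**
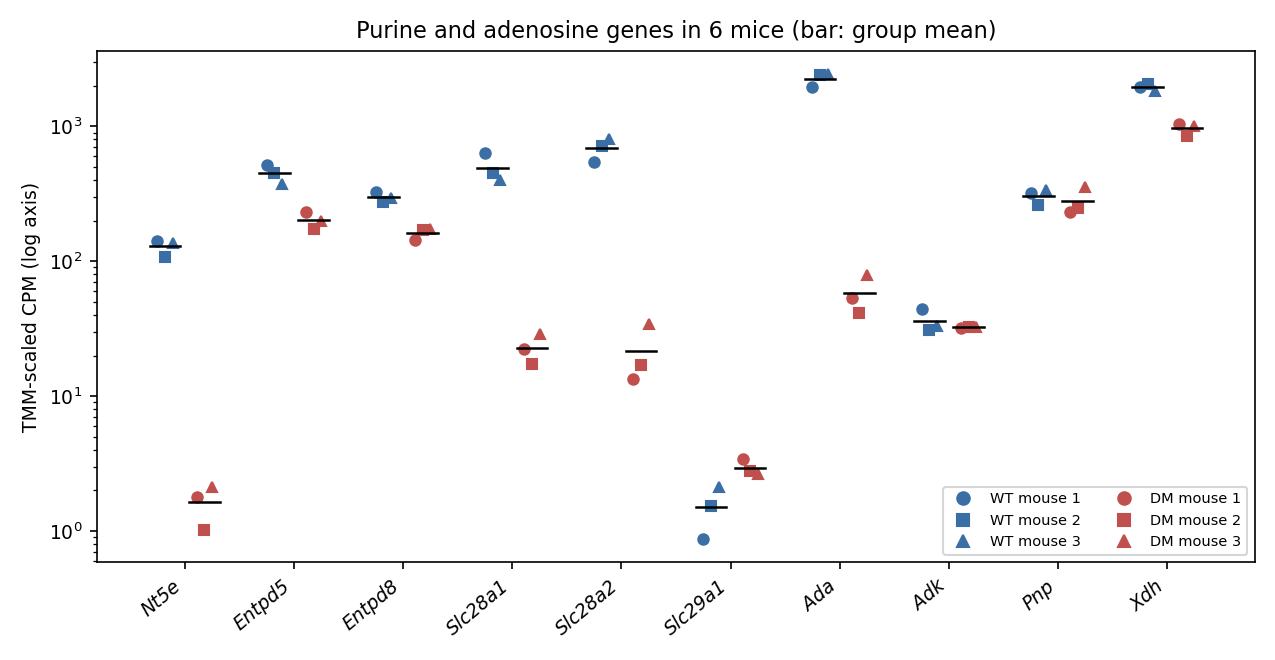
TMM-scaled CPM of the 10 genes in each of the 6 mice on a log axis, with WT in blue, DM in red, a symbol for each mouse number and a bar at the group mean. Nt5e, Slc28a1, Slc28a2 and Ada are separated most widely, Adk and Pnp overlap, and Slc29a1 alone lies higher in the DM mice.

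Inside the cell the 2 enzymes that use adenosine differed widely in their values. Ada had 1941, 2397 and 2444 CPM in WT mice and 53.3, 41.3 and 78.7 CPM in DM mice, 2.56% of the WT mean and a log2 fold change of −5.29 ± 0.270. Adk had 44.6, 31.0 and 33.0 CPM in WT and 32.0, 32.6 and 32.5 CPM in DM mice, with overlapping groups and a log2 fold change of −0.16 ± 0.152. The direction of Adk turned without WT mouse 1, where the value was 0.016, and with scaling by library size alone, where it was 0.034. Per kilobase of exon the ratio of Ada to Adk was 37.0, 65.7 and 62.9 in WT mice and 1.41, 1.08 and 2.06 in DM mice. The lowest WT ratio was in mouse 1, and every DM ratio lies far below it, with Ada still at or above the level of Adk in each DM mouse. A ratio within 1 library does not depend on how libraries are scaled.

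Xdh, the last step to uric acid, had 1970, 2048 and 1839 CPM in WT and 1043, 849 and 1005 CPM in DM mice, a log2 fold change of −1.02 ± 0.125, with no overlap. Its difference was much smaller than that of Ada. Xdh held 27.6% to 30.6% of the counts of the 10 genes in WT mice and 52.5% to 58.6% in DM mice, and Ada held 30.2% to 36.6% and 2.66% to 4.11%. The 10 genes together held 0.586% to 0.640% of the counts of a WT library and 0.164% to 0.204% of a DM library.

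Pnp lies at chr14:51563977-51573087, with the near copy Pnp2 2579 bases further on, and their coding sequences differ at 18 of 870 aligned bases. A stretch of 120 coding bases is printed for both because it holds 8 of the differences, shown in capitals, and because 1 mouse differed in how its counts fell between the genes. It spans chr14:51571173-51571292 for Pnp and chr14:51584025-51584144 for Pnp2 in mm9, both on the plus strand.
Pnp: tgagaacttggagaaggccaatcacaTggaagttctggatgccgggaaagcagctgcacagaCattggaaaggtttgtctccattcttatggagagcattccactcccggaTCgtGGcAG
Pnp2: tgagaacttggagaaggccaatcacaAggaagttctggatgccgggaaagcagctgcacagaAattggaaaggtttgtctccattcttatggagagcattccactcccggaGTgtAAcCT

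Pnp alone had 318, 259 and 338 CPM in WT and 233, 250 and 358 CPM in DM mice, with overlapping groups and a log2 fold change of −0.12 ± 0.181. Its direction turned with library size scaling, to 0.066, and was at 0.00017 without DM mouse 1. Pnp2 had 245, 148 and 263 CPM in WT mice and 136, 165 and 0.665 CPM in DM mice, the last from 14 counts beside 7540 for Pnp. DM mouse 3 thus had the highest Pnp and almost no Pnp2. Pnp2 took 36.4% to 43.7% of the counts of the pair in the other 5 mice and 0.185% in DM mouse 3. Added together, the pair had 563, 408 and 601 CPM in WT and 369, 415 and 359 CPM in DM mice, where DM mouse 3 no longer stood apart. Summing the counts before the fit, an alternative chosen after the data were seen, gave a log2 fold change of −0.46 ± 0.157, which passed the threshold although DM mouse 2 lay above WT mouse 2. Of the stretches of 150 bases in the Pnp2 transcript, 11.7% also occur without a mismatch in the Pnp transcript. This share leaves out the second read of a pair, mismatches allowed in alignment and variants from the reference. It does not measure how many counts could cross between the genes. What set the split in DM mouse 3 was not tested.

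**Figure D2:**
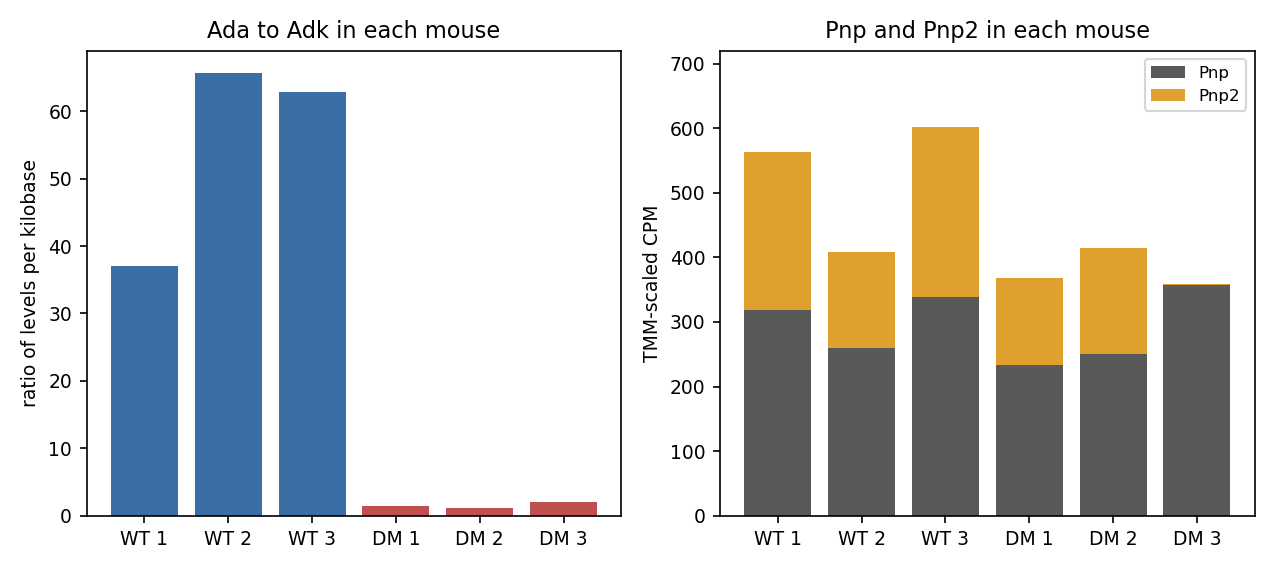
Left, the ratio of Ada to Adk per kilobase of exon in each mouse. Right, stacked bars of TMM-scaled CPM of Pnp and Pnp2 in each mouse, in which DM mouse 3 has 358 CPM of Pnp and 0.665 CPM of Pnp2.

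Levels of different genes were compared per kilobase of exon. In WT mice the order of mean levels was Ada (1129 CPM per kilobase), Xdh (416), Slc28a1 (167), Slc28a2 (166), Entpd8 (109), Pnp (104), Entpd5 (74.1), Nt5e (36.0), Adk (21.3) and Slc29a1 (0.376). The values of neighbours in this order overlapped for Slc28a1 with Slc28a2 and for Entpd8 with Pnp. In DM mice the order was Xdh (206), Pnp (95.2), Entpd8 (59.7), Entpd5 (33.4), Ada (28.9), Adk (19.0), Slc28a1 (7.74), Slc28a2 (5.20), Slc29a1 (0.738) and Nt5e (0.460), and Entpd5 overlapped with Ada and Slc28a1 with Slc28a2. Ada thus moved from place 1 to place 5 and Nt5e from place 8 to place 10. DM mouse 3 had the highest DM value of Nt5e, Entpd8, Slc28a1, Slc28a2, Ada and Pnp, and DM mouse 2 the lowest of Nt5e, Entpd5, Slc28a1, Ada and Xdh.

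Counted over the 10 genes, 7 were lower with an adjusted p under 0.05, where 17.0% of the 13346 genes tested were, and 0 were higher, where 19.7% of all were. In 4 an adjusted p under 0.05 came with a log2 fold change of −2 or below, as in 2.26% of all genes. In 7 of the 10 every DM mouse lay below every WT mouse, as for 24.2% of all genes, and in 1 every DM mouse lay above, as for 28.1%. The median log2 fold change of the 10 was −1.08 and that of all genes 0.02. Since the genes were chosen with this contrast known, nothing is read from these shares. The 7 lower genes kept their direction and their side of the threshold in all 13 alternative fits, among them the fit without WT mouse 1. These fits reuse the mice on which the genes were chosen, so this too is a description and adds no support.

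A further 5 genes had the pattern most like Nt5e over the 6 mice, by Pearson r of log2 CPM among 7911 genes with a mean of at least 10 CPM. They were Tnfaip8l3 (r = 0.9997), Dclk1 (0.999), Pam (0.999), Ptprh (0.999) and Gmeb2 (0.999), given without a p because the 6 points fall into the 2 groups. Any gene lower in DM mice by a gap that is large beside its spread within the groups scores high. The log2 fold changes of these 5 genes were −1.01, −3.33, −2.12, −0.88 and −0.43. Dclk1 is a tuft cell marker, and 5 of 5 tested tuft cell markers fell, from a sum of 83.9 to 113 CPM in WT to 11.9 to 13.6 CPM in DM mice. The part of tuft cells in the Nt5e value was not tested.

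The rest of the pathway was read from lists of 83 other purine genes, of which 79 were in the table and 63 were tested. The edgeR quasi-likelihood test with Benjamini-Hochberg adjustment over all genes called 13 lower and 22 higher, and the median log2 fold change was 0.34. Over all genes tested the shares were 17.0% lower and 19.7% higher, also with more higher than lower calls. The counts by role and by cell type below stand beside these shares, and nothing is read from a count near them.

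Among 14 tested ectonucleotidases and phosphatases, 3 fell and 3 rose, where 17.0% of all tested genes were lower and 19.7% higher. Enpp3, a surface pyrophosphatase that cuts ATP outside the cell, had 1532, 1541 and 1514 CPM in WT and 190, 118 and 167 CPM in DM mice, a log2 fold change of −3.27 ± 0.185 (adjusted p = 2.51e-05). Entpd7, an intracellular member of the ENTPD family, also fell (−0.69 ± 0.162, adjusted p = 0.0110), while the surface pyrophosphatase Enpp1 rose (0.85 ± 0.194, adjusted p = 0.00987). Entpd4, a Golgi enzyme, rose by 0.60 ± 0.185 (adjusted p = 0.0331). It held in 1 of 6 fits with a mouse left out, and only 1 gene of the list rose without WT mouse 2, WT mouse 3, DM mouse 1, DM mouse 2 or DM mouse 3. The brush border alkaline phosphatases, which also cut AMP, were not called, with 4093 to 4736 CPM of Alpi, named after its values were seen, in WT and 2967 to 3753 CPM in DM mice. Every DM mouse nevertheless lay below every WT mouse for Alpi.

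Of 5 other tested nucleoside and nucleobase transporters, 1 fell and 3 rose. Slc28a3, the broad concentrative transporter CNT3, had 8.16, 12.0 and 10.5 CPM in WT and 47.2, 43.5 and 36.7 CPM in DM mice, a log2 fold change of 2.06 ± 0.176 (edgeR, adjusted p = 0.000147). Per kilobase of exon its mean level was 1.30 ± 0.247 CPM in WT mice (SD, n = 3), below Slc28a1 and Slc28a2, and 5.39 ± 0.675 CPM in DM mice (SD, n = 3), where its values overlapped with those of both. Slc43a3, a purine nucleobase transporter, had 6.41, 7.02 and 8.04 CPM in WT and 0.141, 0.139 and 0.475 CPM in DM mice, a log2 fold change of −4.80 ± 0.443 (edgeR, adjusted p = 0.000209). The DM values came from 3, 3 and 10 counts, and without DM mouse 3, where both remaining DM libraries are at the floor of 3 counts, the fitted value of −5.61 depends on the prior count and is no bound. The equilibrative Slc29a2 (1.76 ± 0.596, adjusted p = 0.0468) and Slc29a4 (1.41 ± 0.466, adjusted p = 0.0436) passed at 0.617 to 1.38 CPM in the DM mice. The list had 2 lower genes without WT mouse 1. Slc29a4 did not pass with DESeq2 (adjusted p = 0.124), without the filter on low counts (adjusted p = 0.0853) or with sex as a covariate (adjusted p = 0.0572). It held in none of the 6 fits with 1 mouse left out and Slc29a2 in 2, and the number of rising genes in the list was 1 without WT mouse 2, DM mouse 1, DM mouse 2 or DM mouse 3.

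**Figure D3:**
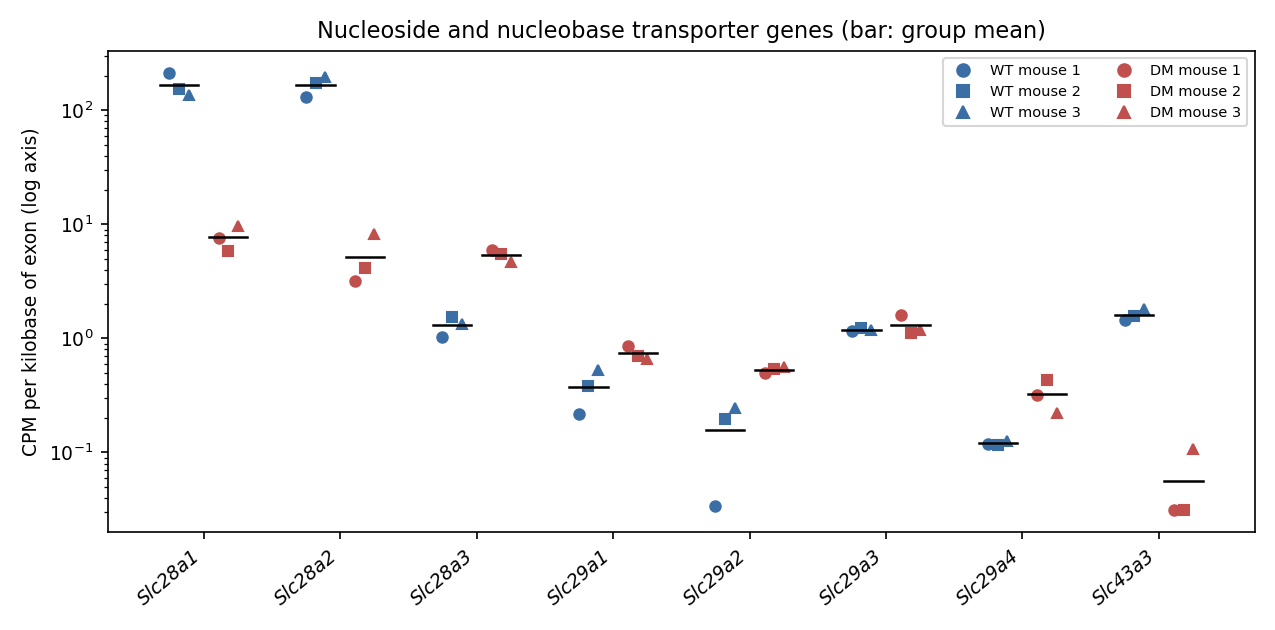
Level per kilobase of exon, on a log axis, of the 8 nucleoside and nucleobase transporter genes with tested counts in each mouse. In all 3 DM mice Slc28a1, Slc28a2 and Slc43a3 lie below every WT mouse, and Slc28a3, Slc29a1, Slc29a2 and Slc29a4 lie above every WT mouse.

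Cytosolic and mitochondrial 5′-nucleotidases, which make nucleosides inside the cell, had 2 higher of 5 tested and 0 lower. Nt5c rose by 0.53 ± 0.151 (edgeR, adjusted p = 0.0242) and Nt5c3 by 0.61 ± 0.188 (adjusted p = 0.0330), but neither passed without WT mouse 2, DM mouse 2 or DM mouse 3, where the number of rising genes was 0, and 1 rose without WT mouse 1 or DM mouse 1. Nt5e, the 5′-nucleotidase of the cell surface, was selected for its change, so these changes are not ranked against it.

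In salvage and breakdown, 4 rose and 3 fell of 15 tested, where 19.7% of all tested genes were higher and 17.0% lower. Mtap, which splits methylthioadenosine to give adenine, had 1.21, 2.12 and 1.21 CPM in WT and 8.07, 7.75 and 6.03 CPM in DM mice (log2 fold change 2.27 ± 0.299, edgeR, adjusted p = 0.000867). Hprt, which recycles hypoxanthine and guanine, rose by 0.90 ± 0.106 (adjusted p = 0.00055), and Ampd2, which deaminates AMP, by 0.76 ± 0.123 (adjusted p = 0.00211). Gda, which deaminates guanine towards xanthine, fell from 2509.6 to 3050.4 CPM in WT to 1383 to 1595 CPM in DM mice (−0.91 ± 0.131, adjusted p = 0.00126). The change in Gda was close in size to that of Xdh. Both tested urate transporters fell, Abcg2 (−0.79 ± 0.161, adjusted p = 0.00589) and Slc2a9 (−0.85 ± 0.153, adjusted p = 0.00358).

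Among 10 tested purinergic receptors and the channel Panx1, 3 fell and 0 rose. Adora2b, the low-affinity adenosine receptor, had 51.0, 37.8 and 42.8 CPM in WT and 23.7, 19.9 and 23.6 CPM in DM mice (log2 fold change −0.97 ± 0.147, edgeR, adjusted p = 0.00159). Per kilobase of exon, Nt5e stood at 1.43 to 1.65 times Adora2b in WT mice and at 0.0265 to 0.0467 times it in DM mice. P2ry2, a nucleotide receptor for ATP and UTP, fell as well (−2.05 ± 0.265, adjusted p = 0.000782). The ATP-gated channel P2rx1 was at least 5.53-fold lower (adjusted p = 0.0102), taking 3 counts in each DM library as the floor, with 0.666 to 0.960 CPM in WT mice. Adora1 (0.0833 to 1.26 CPM in WT, 0.665 to 1.90 CPM in DM) and Adora2a (1.25 to 2.63 and 1.46 to 1.80 CPM) overlapped between the groups, and Adora3 had too few counts to test. Adora1 passed as higher without WT mouse 3, where 2 genes of the list rose.

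De novo synthesis, which builds purines from ribose phosphate, moved the other way, with 10 higher and 1 lower of 12 tested. The summed level of the list differed less, with 217 to 267 CPM in WT and 275 to 299 CPM in DM mice. Impdh2, the entry to guanine nucleotides, had 2.25, 5.28 and 6.77 CPM in WT and 16.1, 26.8 and 21.3 CPM in DM mice (log2 fold change 2.17 ± 0.388, edgeR, adjusted p = 0.00444). Prps2, which makes the ribose donor, rose by 1.98 ± 0.246 (adjusted p = 0.000669), Gart by 1.89 ± 0.235 (adjusted p = 0.000679) and Atic, the last enzyme to IMP, by 1.79 ± 0.251 (adjusted p = 0.00117). WT mouse 1 was the lowest WT mouse for Impdh2, Prps2, Gart and Atic. Without that mouse 10 genes of the list were higher, and 6 without DM mouse 2. Adss, which leads from IMP towards AMP, was the 1 lower gene (−0.47 ± 0.155, adjusted p = 0.0430) and is named after its value was seen. No gene of the list was lower with scaling by library size alone, or without WT mouse 1, WT mouse 2 or any 1 DM mouse.

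**Figure D4:**
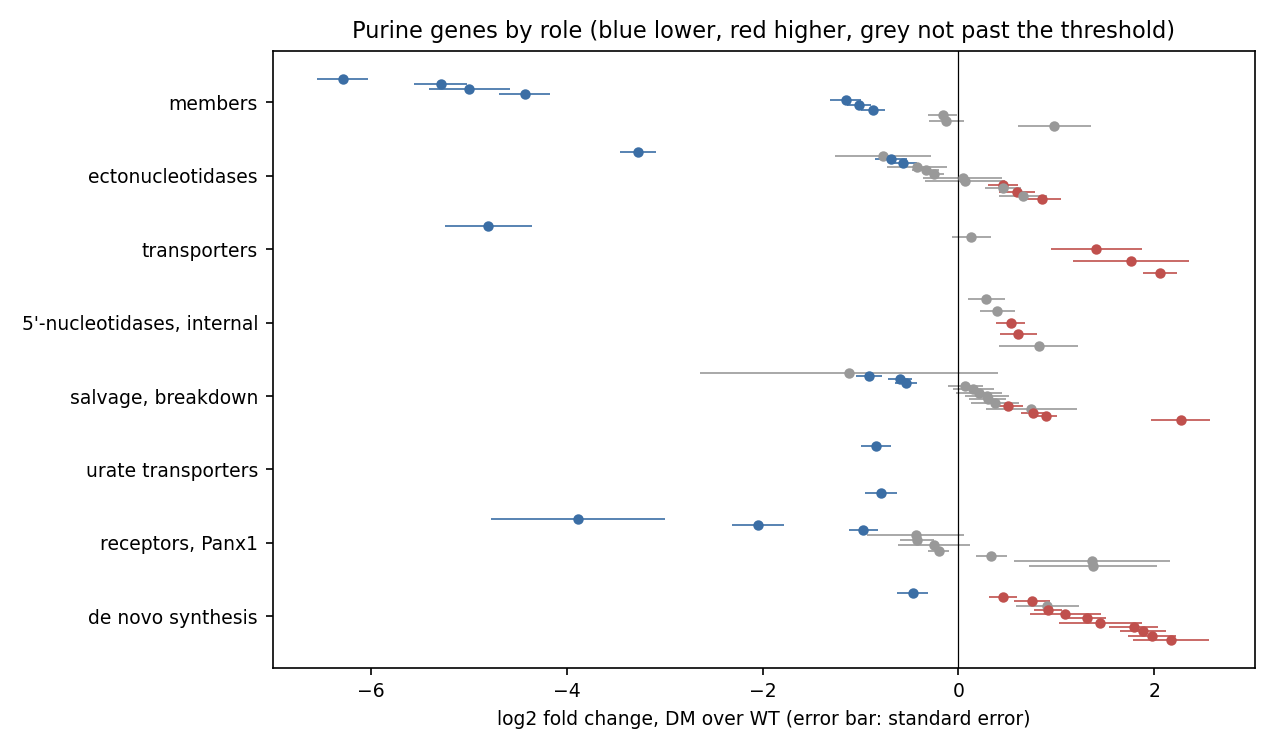
Log2 fold change of DM over WT with its standard error for the 10 genes (first line, "members") and the 63 other purine genes tested, by role; blue was lower, red higher and grey not past an adjusted p of 0.05. The 10 genes and de novo synthesis lie on opposite sides of 0 for most of their points, from −6.29 for Nt5e to 2.17 for Impdh2.

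The name villus tip was set against genes known from the upper villus, since villi were taken whole and the libraries do not hold positions. Of 10 tested genes of the upper villus that are not among the 10 members, 8 fell and 0 rose, with a median log2 fold change of −0.89. Klf4, a transcription factor of differentiated cells, fell (−2.53 ± 0.129, edgeR, adjusted p = 1.56e-05), as did the peptide transporter Slc15a1 (−1.94 ± 0.188, adjusted p = 0.000258) and Fos, an immediate early factor (−1.63 ± 0.163, adjusted p = 0.000293). The list summed to 25547 to 30295 CPM in WT and 15120.5 to 16750.2 CPM in DM mice. Mid-villus genes were lower as well, 5 of 6, with a median of −1.25, and 6 of 7 genes of the villus base rose, with a median of 1.00. Lower genes were thus found in the upper and the middle lists and higher ones in the list of the base.

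Enterocyte markers were present in every library, with a sum of 33096 to 39767 CPM in WT and 23460 to 24546 CPM in DM mice, 5 of 10 lower and 1 higher. Crypt markers summed to 63.8 (WT mouse 1) to 151 CPM in WT and 251 to 337 CPM in DM mice, with 6 of 8 higher and 0 lower. Enteroendocrine markers summed to 224 to 311 CPM in WT and 96.1 to 105 CPM in DM mice, with no overlap and 5 of 6 lower, the direction of the 7 lower members. Lymphocyte markers had 94.8 (WT mouse 1) to 195 CPM in WT and 84.2 to 125 CPM in DM mice. Of these markers 2 of 8 were lower, where 17.0% of all tested genes were. Myeloid, mesenchymal, endothelial, erythroid and pancreatic lists stayed at or under 12.6 CPM in every mouse. The part of these cell types in the values of the 10 genes was not tested.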

How the data were processed

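Total RNA of duodenal villus epithelium was sequenced as polyA libraries with paired reads of 150 bases. The labels and the study's methods differ in the EDTA concentration used to release the epithelium. The authors aligned the reads to mm9 with HISAT2 and deposited raw counts per gene from featureCounts, with no normalization and no pooling. The strand setting and the handling of reads that fit several genes were not given in the sources used here. Of 20073 Ensembl identifiers, 20032 matched GENCODE vM1 on mm9, and 336 features outside that annotation were kept under their own numbers. The reads have no molecular identifiers, so floors cover counting error only.

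The counts were analysed in R 4.3.3 using edgeR 4.0.16, with DESeq2 1.42.0 for an alternative. Genes were kept by filterByExpr (13346 genes), scaled by TMM, and compared by the quasi-likelihood test of edgeR (glmQLFit with robust estimation), and p-values were adjusted by Benjamini-Hochberg over these genes, with a threshold of 0.05. Standard errors were obtained from the log2 fold change and the F statistic (log2 fold change over root F). A level per kilobase is TMM-scaled CPM divided by the merged exon length. The floor was set at 3 counts in every library, at depths of 19678507 to 26337318 counts. With 3 mice against 3, an exact permutation test cannot go below p = 0.1, so single values were given with their spread. The scripts were tested on simulated counts.

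The members and lists were chosen with earlier results of these data known. Named were every member, the 4 called genes with the largest change in each list, the adenosine receptors, near copies of members, 3 upper villus genes, Smad4 and the 5 genes most like Nt5e; Alpi and Adss are exceptions. Mice with the same replicate number did not deviate together (r = 0.0123, −0.146 and 0.00792 for numbers 1 to 3), so the groups were compared without pairing. Alternatives were RLE (DESeq2 size factor) or library size scaling, DESeq2, other filters, the replicate number or sex as a term, and leaving out each mouse.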

Additional observations from a re-analysis of the deposited data

How the results depend on the processing

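Scaling by library size alone moved the median log2 fold change of all genes from 0.02 to 0.22, the lower calls from 2273 to 1425, with 3732 higher, and the lower share of calls from 46.3% to 27.6%. It also gave 1 higher member, 5 higher ectonucleotidases, 1 higher receptor and 0 lower de novo genes, and turned Adk to 0.034 and Pnp to 0.066. A log2 fold change of at least 2 as a further condition left 4 lower members. DESeq2 and no filter on low counts each gave 2 lower nucleoside transporters. With the replicate number as a block, 7 members were lower, 1 nucleoside transporter (without Slc29a2 and Slc29a4) and 0 cytosolic nucleotidases (without Nt5c and Nt5c3) were higher, and 3834 genes were called in place of 4905. Summing Pnp with Pnp2, added after the data were seen, gave −0.46.

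Leaving out each mouse in turn gave 7 lower and 0 to 1 higher members, 1630 to 2361 lower and 1812 to 2783 higher genes in all, 2 to 4 lower and 1 to 3 higher ectonucleotidases, 1 to 2 lower and 1 to 2 higher nucleoside transporters, 0 to 2 higher cytosolic nucleotidases, 3 to 5 higher salvage genes, 0 to 2 higher receptors, and 0 to 1 lower and 6 to 10 higher de novo genes. Adk ran from −0.26 to 0.016 (without WT mouse 1), Pnp from −0.34 to 0.00017 (without DM mouse 1) and Adora2a from −0.49 to 0.045 (without WT mouse 3). The values of Slc29a1, Slc29a2, Slc29a4, P2rx1 and, in DM mice, Slc43a3 rest on few counts. P2rx1 and Slc29a4 did not pass the stricter filter and have no value there. Where a call was lost, the cause was not tested.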
